A study of Homo sapiens with 9 samples.

Results

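H3K4me3 peaks with an anti-HA peak in untagged cells, and none in cells with HA-tagged BAZ2B, numbered 303 of 16997 on chromosomes 1 to 22 and X. They are called WT-only H3K4me3 peaks here. CUT&Tag, which directs a transposase to the targets of an antibody in permeabilised cells, was done in 3 groups of 3 replicates of A549, a cell line from a human lung adenocarcinoma. HA-BAZ2B cells, in which an HA epitope was inserted at the 5′ end of the endogenous BAZ2B gene, were profiled with anti-HA. Wild-type (WT) A549 cells, which hold no HA epitope, were profiled with the same antibody. H3K4me3 was profiled in the HA-BAZ2B cells and not in WT cells, so that each WT-only peak joins values of both lines. The sources used here do not say whether the tagged cells are 1 clone. The protocols in the labels also describe a transfection with siRNA, which no label ties to a library.

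A WT-only peak was an H3K4me3 peak of any width that shared at least 1 bp with a peak of the WT list and 0 bp with any peak of the HA-BAZ2B list. The sites were thus chosen by the presence and absence of listed anti-HA peaks, which are a description and not a finding. Each group has 1 deposited peak list, made of the peaks of 1 library that recurred in at least 2 of 3 replicates. There is no value per replicate, read depth is unknown, and no test across cultures could be made. Intervals below are exact 95% binomial (Clopper-Pearson) intervals for shares, and 95% order-statistic intervals for medians. They cover counting error over peaks only, and peaks are not replicates.

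BAZ2B is a bromodomain protein that partners ISWI ATPases in chromatin remodeling complexes. The title of the series links it to G-quadruplex DNA, a fold of guanine-rich strands. Trimethylation of lysine 4 on histone H3 marks the starts of active genes. An untagged line treated with the anti-tag antibody is the usual control for signal that does not need the tag, so WT-only sites are places that this control lists and the tagged sample does not. All regions are given in hg19 with their cytogenetic band. Genes at these sites were not analysed here, since no annotation of that build was used.

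WT-only peaks made up 1.78% of all H3K4me3 peaks (1.59 to 1.99%). Of the 2224 H3K4me3 peaks with a WT peak, 13.6% carried no HA-BAZ2B peak (12.2 to 15.1%) and 1921 carried one. Without a WT peak, 67.5% of H3K4me3 peaks carried no HA-BAZ2B peak (66.7 to 68.2%). Each WT-only peak carried exactly 1 WT peak, and these 303 were 12.7% of the 2381 WT peaks on the same chromosomes (11.4 to 14.1%).

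WT-only peaks were narrow and of low significance among H3K4me3 peaks. Their median width was 779 bp (interval 706 to 866 bp), against 1419 bp for H3K4me3 peaks with both anti-HA peaks, 1304 bp for those with HA-BAZ2B only and 984 bp for those with neither. Their intervals for width did not overlap those of any of these other classes. Over the 303, width ran from 299 to 3078 bp, with the middle 50% between 548 and 1176.5 bp. The median sat at percentile 23.02 of the whole H3K4me3 list by width. H3K4me3 fold enrichment, the ratio that the authors' peak caller gives over its background estimate, had a median of 7.88 (7.48 to 8.41) at WT-only peaks. It was 8.84 with both anti-HA peaks, 9.37 with HA-BAZ2B only, 8.99 with neither and 9.07 over the whole list. The authors' −log10 q, their significance of a peak, had a median of 16.6 (14.7 to 20.2), against 59.1, 53.4 and 31.6 in the same order of classes. All these H3K4me3 values come from 1 list, so they can be set side by side.

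**Figure D1:**
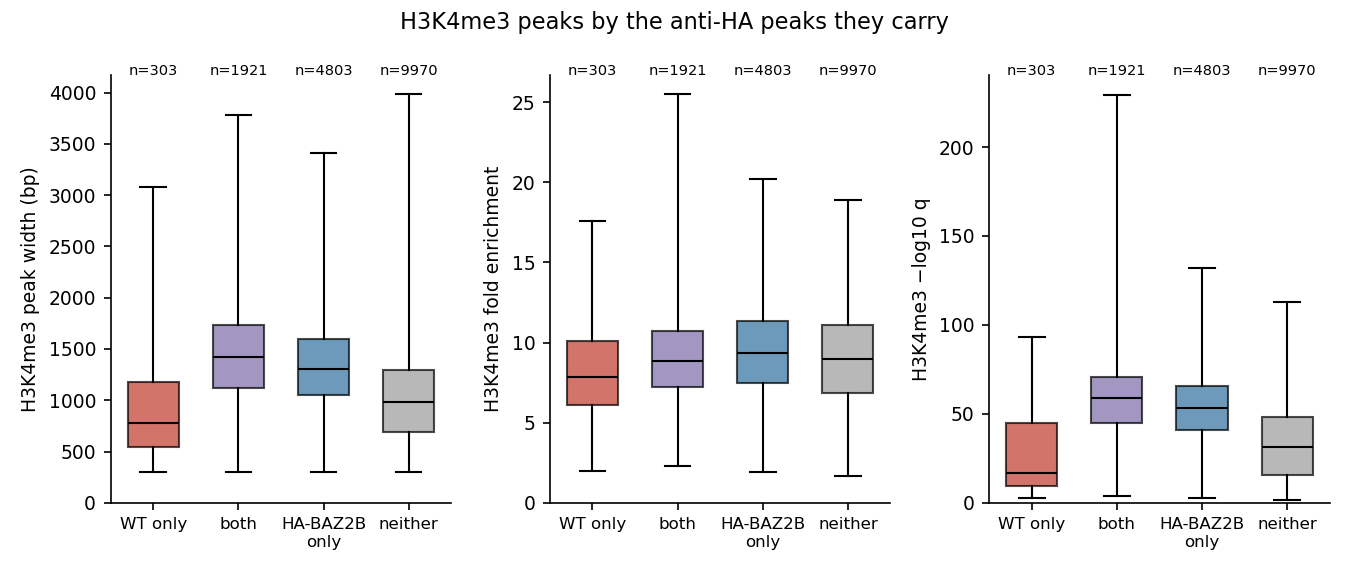
Width in bp, fold enrichment and −log10 q of H3K4me3 peaks (vertical axes) in 4 classes by the anti-HA peaks they carry. Boxes give the median and the middle 50% of peaks and whiskers the lowest and highest peak; the WT-only class has the lowest median in each panel, 779 bp, 7.88 and 16.6.

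The 303 peaks spanned a wide range of significance, with the middle 50% of −log10 q between 9.25 and 44.9. A −log10 q under 20 was found for 169 of them (55.8%, 50.0 to 61.5%), against 6.92% of peaks with both anti-HA peaks, 6.77% with HA-BAZ2B only and 32.5% with neither. The other 134 had a median H3K4me3 width of 1194 bp and a median fold enrichment of 10.1, against 621 bp and 6.87 for the 169. The value of 20 that separates them was chosen after the values were seen.

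Among H3K4me3 peaks with a WT peak, the share that lacked HA-BAZ2B was lower the wider the H3K4me3 peak was. It was 69.4% of 85 peaks under 500 bp (58.5 to 79.0%) and 31.6% of 440 peaks of 500 to under 1000 bp (27.3 to 36.2%). It was 8.59% of 850 peaks of 1000 to under 1500 bp (6.79 to 10.7%) and 3.77% of 849 peaks of 1500 bp and over (2.59 to 5.28%). H3K4me3 peaks without a WT peak lacked HA-BAZ2B more often in every one of these width ranges, in 93.2, 81.1, 60.4 and 47.7% of cases. The same order held by −log10 q, from 71.6% under 10 (62.4 to 79.5%) to 3.57% at 60 and over (2.49 to 4.96%) with a WT peak. Without a WT peak the shares at these ends were 93.5 and 37.8%. By fold enrichment the shares with a WT peak lay closer together and did not fall at every step. They were 24.8% under 6, 14.6% from 6 to under 8, 10.5% from 8 to under 10, 12.4% from 10 to under 12 and 8.90% at 12 and over.

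**Figure D2:**
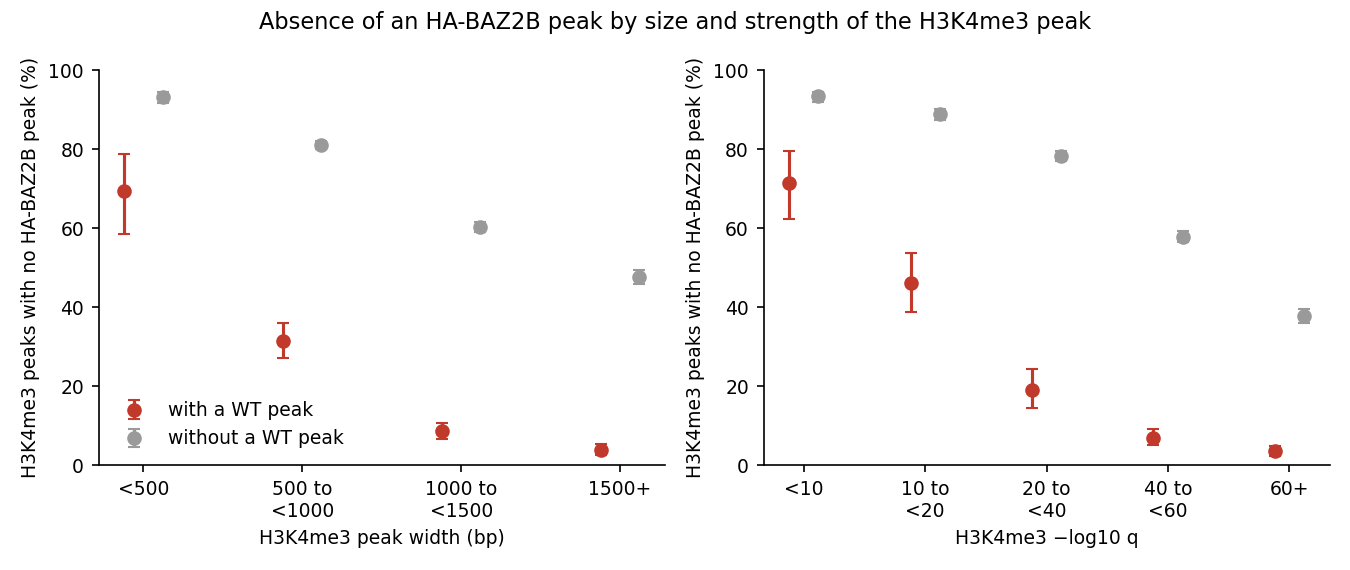
Share in percent of H3K4me3 peaks that carried no HA-BAZ2B peak (vertical axis) by H3K4me3 width in bp and by H3K4me3 −log10 q, for peaks with a WT peak (red) and without one (grey). Bars are exact 95% binomial intervals over peaks; the red share goes from 69.4% under 500 bp to 3.77% at 1500 bp and over, below the grey share in each range.

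The 10 WT-only peaks with the highest H3K4me3 fold enrichment lay on 8 chromosomes and had values of 13.4 to 17.6. The highest was at 12q21.1 (chromosome 12, 74902650 to 74903306), with an H3K4me3 fold enrichment of 17.6 over 657 bp. Its WT peak had a fold enrichment of 7.15 in the WT list, and the nearest HA-BAZ2B peak was 27.9 kb away. It was followed by 19q13.31 (chromosome 19, 44905198 to 44905856), with an H3K4me3 fold enrichment of 16.6 and a WT fold enrichment of 4.89. Next came 4p16.3 (chromosome 4, 9852 to 10336), with 15.1 in the H3K4me3 list and 13.2 in the WT list, only 9.85 kb inside the chromosome end. The peaks at 8p21.3 (chromosome 8, 21867496 to 21868562) and Xp11.23 (chromosome X, 48595428 to 48596372) had H3K4me3 fold enrichments of 15.1 and 14.6. Those at 19q13.41 (chromosome 19, 52531246 to 52532154) and 11p14.1 (chromosome 11, 30344390 to 30345426) had 14.5 and 14.2. The remaining 3 were at 10q24.32 (chromosome 10, 104613827 to 104614568), 21q22.3 (chromosome 21, 48118234 to 48119406) and 4p12 (chromosome 4, 47464978 to 47465850), with 13.9, 13.6 and 13.4. The WT peaks at these 10 sites had a median fold enrichment of 6.44, against 5.64 at all 303 WT-only sites and 6.43 over the whole WT list, and were 302 to 1101 bp wide.

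The 5 widest WT-only peaks had low H3K4me3 fold enrichment, from 3.48 to 5.46. Low values at wide peaks were not particular to this class. With both anti-HA peaks, H3K4me3 peaks of 2935, 2877 and 2750 bp had 4.17, 4.57 and 5.02, given as examples. The widest WT-only peak was at 12q13.3 (chromosome 12, 57480688 to 57483765), with 3078 bp and a WT peak of 1631 bp wholly inside it, the largest overlap of all 303. The next were at 11p15.5 (chromosome 11, 832257 to 835246), with 2990 bp, and 9p13.2 (chromosome 9, 38067061 to 38069871), with 2811 bp. Those at 9q21.12 (chromosome 9, 73033333 to 73035776) and 17q25.3 (chromosome 17, 79884114 to 79886531) had 2444 and 2418 bp. Summits of the WT and H3K4me3 peaks at these 5 sites were 416 to 2144 bp apart, and so did not share their highest point. The other large overlaps were at 11q13.1 (chromosome 11, 65274329 to 65275900), with 1347 bp, and 17p11.2 (chromosome 17, 18964692 to 18966258), with 1323 bp.

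The WT peaks at WT-only sites were, like the H3K4me3 peaks there, on the weak side of their own list. They chose the members, so their values are a description. Their median fold enrichment was 5.64 (5.38 to 5.78), against 6.61 for WT peaks at H3K4me3 peaks that also carried HA-BAZ2B and 5.54 for the 152 WT peaks off H3K4me3. Their median width was 509 bp, against 670.5 and 535 bp, and their median −log10 q 7.09, against 11.1 and 7.26. They sat at a median percentile of 31.4 of the WT list by fold enrichment and of 33.2 by width.

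A few WT peaks at WT-only sites were among the strongest of the WT list. The 10 highest ran from 9.20 to 17.9 in fold enrichment, and 4 of the first 5 lay within 100 kb of a chromosome end. The highest was at 17p11.2 (chromosome 17, 22020603 to 22020982), 179 kb from the centromere band, with a WT fold enrichment of 17.9 on an H3K4me3 peak of 6.73. The peak at 7p22.3 (chromosome 7, 9923 to 10321) had 17.8 in the WT list and 9.43 in the H3K4me3 list. At 12p13.33 (chromosome 12, 95228 to 95745) the WT fold enrichment was 15.3, with a −log10 q of 100.1 against 36.1 for H3K4me3. At 15q26.3 (chromosome 15, 102521072 to 102521529) it was 13.4, and 4p16.3, given above, came next. The others were at 11p13 (chromosome 11, 35325918 to 35326216; 11.1), 5p15.33 (chromosome 5, 1539842 to 1540340; 11.03), 10q26.3 (chromosome 10, 135524436 to 135524888; 10.9), a second place on 15q26.3 (chromosome 15, 99440114 to 99440819; 9.996) and 6p22.3 (chromosome 6, 24743475 to 24744045; 9.20). At these 10 sites the WT peak covered a median of 98.6% of the H3K4me3 peak, and the summits lay 1 to 134 bp apart. Scores of the WT and H3K4me3 lists are not on a shared scale, so their fold enrichments do not show which signal was higher.

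WT peaks covered more of the H3K4me3 peak at WT-only sites than at sites with both anti-HA peaks. The median share covered was 66.0% (60.1 to 71.4%), against 47.8% (46.6 to 49.0%) over 1910 sites where 1 WT peak met 1 H3K4me3 peak. The median ratio of WT to H3K4me3 width was 0.718 at WT-only sites and 0.485 with both. It lay wholly inside the H3K4me3 peak at 158 of 303 WT-only sites (52.1%, 46.4 to 57.9%), against 84.7% with both (83.0 to 86.2%). The reverse, an H3K4me3 peak wholly inside the WT peak, was found at 46 WT-only sites (15.2%, 11.3 to 19.7%), against 1.99% with both (1.41 to 2.72%). Summits were a median of 80 bp apart, against 78 bp with both, and the WT summit lay within the H3K4me3 peak at 298 of 303 sites.

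These differences in coverage moved with the strength of the H3K4me3 peak. Among WT-only peaks with a −log10 q of 20 or more the median width ratio was 0.429 (0.389 to 0.490), against 0.471 (0.460 to 0.484) with both anti-HA peaks in the same range. Under 20 the ratio was 0.921 (0.847 to 0.985) at WT-only sites and 0.874 (0.773 to 0.9496) with both. Within each range the intervals of the width ratio overlapped between the classes. Both median widths were smaller at WT-only sites. At 20 or more they were 485.5 bp (439 to 542) against 675 bp (660 to 690) for WT. For H3K4me3 they were 1194 bp (1126 to 1250) against 1450 bp (1429 to 1473). Under 20 they were 524 against 626 bp for WT, with overlap of the intervals, and 621 against 754 bp for H3K4me3. The WT peak lay wholly inside in 79.9 against 87.8% at 20 or more, and 30.2 against 41.5% under 20, the intervals overlapping. The WT fold enrichment in the range of 20 or more was 5.38 (5.15 to 5.71) at WT-only sites and 6.66 (6.58 to 6.77) with both, without overlap of the intervals. Under 20 it was 5.80 (5.53 to 6.13) and 6.03 (5.74 to 6.39), with overlap. The widths of the WT and H3K4me3 peaks showed a Spearman rho of 0.049 across the 303 WT-only sites, against 0.36 across the 1910 with both. For fold enrichment rho was 0.21 in both classes, and for −log10 q it was -0.26 at WT-only sites and 0.10 with both. These are descriptions across sites that share the same libraries.

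**Figure D3:**
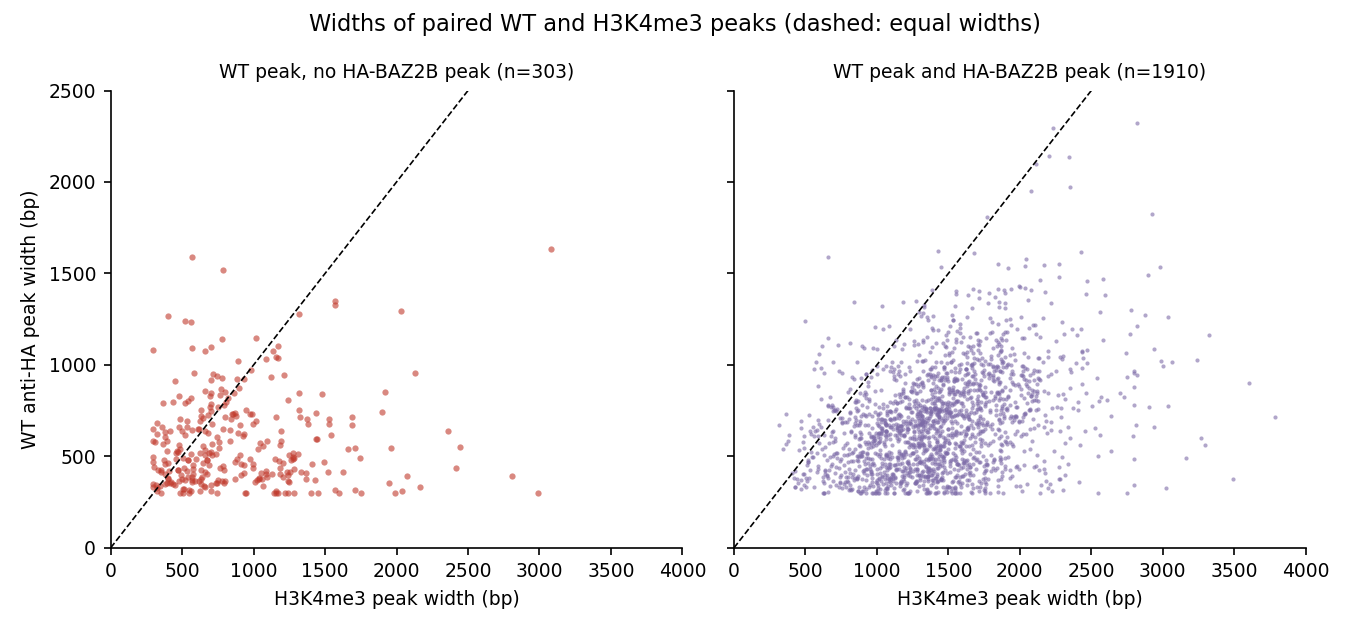
Width in bp of the WT anti-HA peak (vertical axis) against width in bp of the H3K4me3 peak (horizontal axis), 1 point per site, for the 303 WT-only sites (left) and 1910 sites with both anti-HA peaks (right); the dashed line marks equal widths. WT-only sites reach the line more often, with 46 H3K4me3 peaks wholly inside the WT peak, against 38 of the 1910.

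By overlap and distance in bp, few sites lay near the edge of the rule. The count moved more with a limit of significance set on 1 anti-HA list alone. It was 391 with a −log10 q of at least 5 in the HA-BAZ2B list and 221 with this limit in the WT list. With the same limit in all 3 lists it was 293. The smallest overlap with a WT peak was 152 bp, at 9p13.3 (chromosome 9, 35511269 to 35511567), and the 5 smallest ran to 214 bp. The next were at 15q23 (chromosome 15, 71704175 to 71704473), 7q11.22 (chromosome 7, 68156886 to 68157212), 8q24.21 (chromosome 8, 130720112 to 130720732) and 2q36.3 (chromosome 2, 227342838 to 227343319), and these 5 had H3K4me3 fold enrichments of 4.71 to 8.44. The sites closest to an HA-BAZ2B peak were at 2q37.3 (chromosome 2, 243153103 to 243153623), 153 bp away, at the same 9p13.3 site, 154 bp away, and at 5q35.3 (chromosome 5, 180614849 to 180615420), 567 bp away. Just outside the rule were H3K4me3 peaks at 2p11.2 (chromosome 2, 85968780 to 85969370), where 127 bp were shared with an HA-BAZ2B peak, 2q37.3 (chromosome 2, 243152327 to 243152822), with 165 bp, and 6q21 (chromosome 6, 107268232 to 107268760), with 167 bp. The HA-BAZ2B peaks there had fold enrichments of 4.97, 4.81 and 4.01. At the 2q37.3, 9p13.3 and 5q35.3 WT-only sites, and at no other of the 303, the WT peak itself touched an HA-BAZ2B peak beyond the H3K4me3 peak. The H3K4me3 peaks just inside and just outside the rule at 2q37.3 shared 1 WT peak of 1238 bp, and so are not separate places. Few sites had an HA-BAZ2B peak nearby, with 5 that had one within 1 kb (1.65%, 0.538 to 3.81%) and 34 within 10 kb (11.2%, 7.90 to 15.3%), and the median distance was 69.8 kb. H3K4me3 peaks with neither anti-HA peak had one within 10 kb in 7.94% of cases (7.42 to 8.49%), and a median distance of 88.6 kb.

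A WT-only site may still have held an HA-BAZ2B peak that was called and then left out by the filter for recurrence. The HA-BAZ2B source library had at least 16278 numbered peaks, of which 7027 are listed, and the numbers run along the genome. The numbers missing between the listed HA-BAZ2B peaks on both sides of a site are thus the peaks of that library called somewhere between them. At 45 of the 303 WT-only sites no number was missing (14.9%, 11.04 to 19.4%), so that library had no unlisted peak between the listed ones. A listed HA-BAZ2B peak could still be close. The 45 include the 2q37.3, 9p13.3 and 5q35.3 sites given above, which lay 153, 154 and 567 bp from one. The WT peaks of these sites touched a listed HA-BAZ2B peak. At 120 sites 1 or 2 numbers were missing, and at 138 sites 3 or more. These last 258 sites lay between listed peaks with at least 1 unlisted HA-BAZ2B peak, whose place is not known. At 250 of these 258 both listed peaks were on the chromosome of the site. At the others a listed peak was on another chromosome or contig, where the missing numbers may also lie. H3K4me3 peaks with neither anti-HA peak had no missing number in 3.74% of cases (3.38 to 4.13%).

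The sites with no missing number were mostly weak H3K4me3 peaks. They were 39 of the 169 WT-only sites with a −log10 q under 20 (23.1%, 17.0 to 30.2%), against 10.4% (9.38 to 11.5%) of such peaks with neither anti-HA peak. In the range of 20 or more they were 6 of 134 (4.48%, 1.66 to 9.49%), against 0.535% (0.375 to 0.739%). The 45 sites had a median H3K4me3 width of 565 bp (506 to 675 bp) and fold enrichment of 7.14, and a median WT fold enrichment of 5.79. The listed HA-BAZ2B peaks on both sides were a median of 436 kb apart at the 292 WT-only sites with one on each side (352 to 509 kb) and 489 kb apart at peaks with neither anti-HA peak (477 to 502 kb), with overlap of the intervals. They were closer at sites with no missing number, at 309 kb against 485 kb at WT-only sites with 1 or more, and at 148 kb against 504 kb at peaks with neither. The part of this spacing in the shares was not tested.

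**Figure D4:**
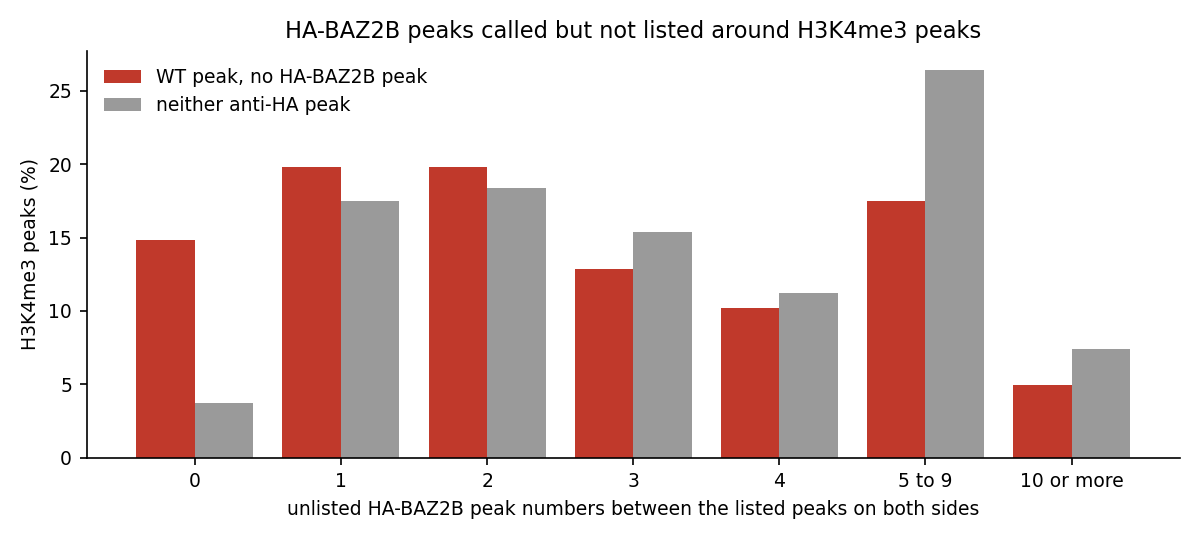
Share in percent of H3K4me3 peaks (vertical axis) by the count of HA-BAZ2B peak numbers missing between the listed HA-BAZ2B peaks on both sides (horizontal axis), for the 303 WT-only peaks (red) and the 9970 with neither anti-HA peak (grey). No number was missing for 14.9% of WT-only peaks and for 3.74% of the others.

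WT-only sites lay on all 23 chromosomes studied, from 5 each on 18 and 22 to 33 on 17. Chromosome 17 held 10.9% of them and 6.13% of all H3K4me3 peaks, and 3.17% of its H3K4me3 peaks were WT-only (2.19 to 4.42%). Taken over the H3K4me3 peaks with a WT peak, chromosome 17 was close to the whole list, with 33 of 213 (15.5%, 10.9 to 21.1%) lacking HA-BAZ2B. This share was lowest on chromosome 14, at 7 of 94 (7.45%, 3.05 to 14.7%), and highest on 18, at 5 of 20 (8.66 to 49.1%). Chromosome 19, rich in zinc finger genes, had 19 of 207 (9.18%, 5.62 to 13.96%), and chromosome 7 had 22 of 106 (20.8%, 13.5 to 29.7%). Every one of the 23 intervals included the 13.6% of the whole.

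**Figure D5:**
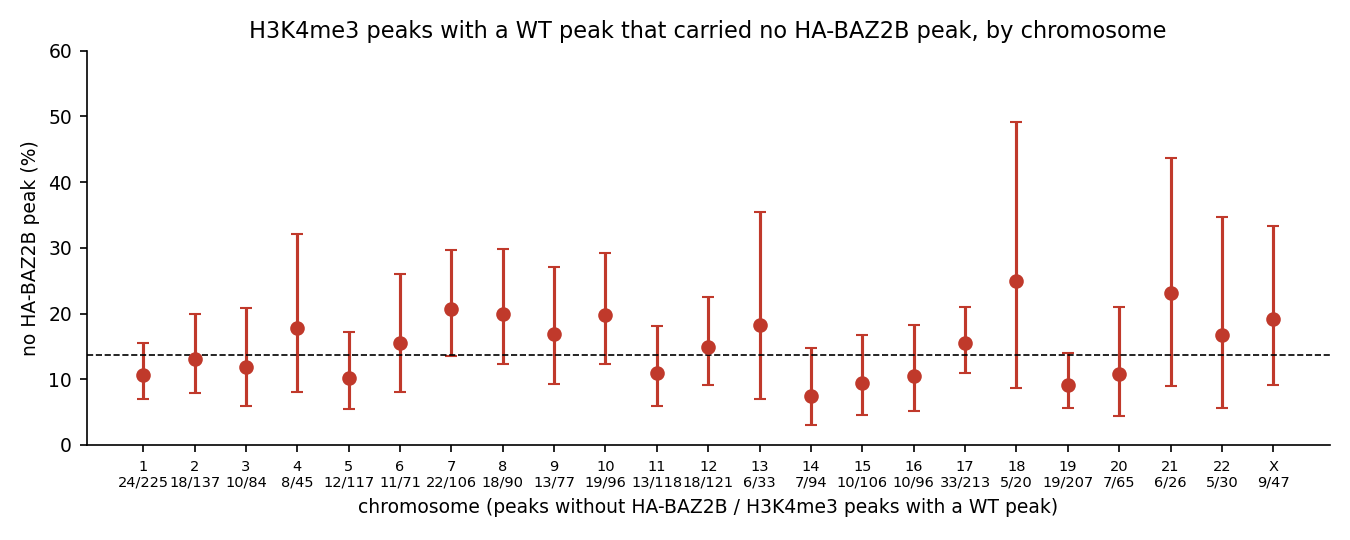
Share in percent of H3K4me3 peaks with a WT peak that carried no HA-BAZ2B peak (vertical axis), by chromosome, with both counts under each; bars are exact 95% binomial intervals over peaks. The dashed line is the 13.6% of all chromosomes, which lies inside each interval, and points run from 7.45% on chromosome 14 to 5 of 20 peaks on 18.

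Most WT-only sites were the only WT-only site in their window of 1 Mb. The sites fell into 273 windows, of which 245 held 1 site, 26 held 2 and 2 held 3. Such counts were not made for other classes or for an equal number of H3K4me3 peaks. In the window of chromosome 17 from 18000001 to 19000000, the 3 sites at 17p11.2 lay between 18941292 and 18967762, with H3K4me3 widths of 559 to 1567 bp and fold enrichments of 3.89 to 7.39. That window held 22 H3K4me3 peaks, 6 with a WT and 8 with an HA-BAZ2B peak. The window border splits this group, since the next window, from 19000001 to 20000000, held 2 more WT-only sites at 17p11.2. These were at 19039254 to 19039912 and 19090799 to 19091920. In the window of chromosome 19 from 43000001 to 44000000, 3 sites had H3K4me3 widths of 576 to 632 bp, and 4 of its 7 H3K4me3 peaks carried a WT peak and 1 an HA-BAZ2B peak. Another H3K4me3 peak lay within 1 kb of 18 WT-only sites (5.94%, 3.56 to 9.23%), against 2.19% with both anti-HA peaks, 3.96% with HA-BAZ2B only and 5.11% with neither. Bands left light by Giemsa stain, the gene-rich ones, held 60.4% of WT-only sites (54.6 to 65.9%) and 60.9% of all H3K4me3 peaks.

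Chromosome ends held 8 of the 303 sites within 100 kb (2.64%, 1.147 to 5.14%), against 0.625% (0.323 to 1.09%) of H3K4me3 peaks with both anti-HA peaks, 0.271% (0.144 to 0.462%) with HA-BAZ2B only and 0.181% (0.107 to 0.285%) with neither. These are 8 of the 51 H3K4me3 peaks so close to an end. Within 1 Mb of an end the classes lay closer together, with 17 WT-only sites (5.61%, 3.30 to 8.83%), against 4.16% (3.32 to 5.16%) with both anti-HA peaks, 3.27% (2.78 to 3.81%) with HA-BAZ2B only and 3.23% (2.89 to 3.596%) with neither, and the interval of WT-only sites overlapped each of the others. The assembled sequence next to the terminal gaps of the reference is known for telomeric and duplicated subtelomeric repeats, in which reads are hard to place. The peaks at 4p16.3, 10q26.3, 15q26.3 and 7p22.3, given above, lay 9.85, 9.86, 9.86 and 9.92 kb from the end, and the one at 21q22.3 10.5 kb. The 3 farther in were the 2q37.3 site, at 45.8 kb, 9q34.3 (chromosome 9, 141121847 to 141122145), at 91.3 kb, and 12p13.33, at 95.2 kb. At the 2q37.3 site the WT peak touched an HA-BAZ2B peak, as given above. The WT fold enrichments of the 8 sites ran from 7.01 to 17.8, with a median of 12.1, against 5.64 over all 303. Strong WT peaks near ends were not particular to WT-only sites. With both anti-HA peaks, WT fold enrichments of 18.23, 18.19, 9.41 and 8.41 were found at 9897, 10143, 82130 and 49311 bp from an end. These are examples from that class and not a summary of it. The H3K4me3 peaks of the 8 WT-only sites had a median width of 471.5 bp and were covered to a median of 98.6% by the WT peak. A further 10 sites (3.30%, 1.59 to 5.99%) lay within 1 Mb of a centromere band, against 1.67% (1.14 to 2.34%) with both anti-HA peaks, 1.73% (1.38 to 2.14%) with HA-BAZ2B only and 1.35% (1.14 to 1.60%) with neither. The interval of WT-only sites overlapped each of these. They included 12p11.1 (chromosome 12, 33740542 to 33741044) and 17q11.1 (chromosome 17, 25572090 to 25572503), inside these bands, and 2 sites on 10q11.21 (chromosome 10, 42400327 to 42400707 and 42529262 to 42529623). The sources used here do not say how reads were placed in repeats, and its part in these counts was not tested.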

How the data were processed

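CUT&Tag libraries of 9 samples were grouped by their titles. For H3K4me3 replicates 2 and 3 the antibody entry reads differently from the title, which was followed. Bowtie2 2.4.5, Picard, SAMtools 1.15.1, bedtools and MACS2 2.1.4, and the builds hg19 and dm6, are named in the submitters' processing notes. The sources used here give no MACS2 settings or control. Per the labels, peaks present in at least 2 replicates were kept, as rows of the largest replicate file. By the peak names these are replicate 3 for HA-BAZ2B, 2 for WT and 1 for H3K4me3. The names of the WT and H3K4me3 source libraries share an extra tag that those of HA-BAZ2B lack, with no meaning given. The share of numbered peaks listed was at most 43.2% for HA-BAZ2B, 25.3% for WT and 80.5% for H3K4me3.

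The deposited fold enrichment is a ratio from the authors' peak caller, and the deposited −log10 q is its significance. Neither is scaled between lists. Positions in bp are as deposited, printed counted from 1. Chromosomes 1 to 22 and X were used, with overlaps of at least 1 bp. Classification was checked on simulated peaks. Cytogenetic bands and chromosome lengths came from circlize 0.4.16, and values were computed in Python 3.11.15 with scipy 1.17.1, pandas 2.3.3, numpy 2.4.6 and matplotlib 3.10.9. No test was made over peaks. The members, lists and bins were chosen with earlier results of these data known. Named regions are the 10 highest by H3K4me3 and by WT fold enrichment, the 5 widest, the 5 smallest and 3 largest overlaps, the 3 nearest to HA-BAZ2B, and windows with 3 or more members; peaks at chromosome ends and centromere bands were added after their values were seen. Sequence features were not analysed here.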

Additional observations from a re-analysis of the deposited data

How the results depend on the processing

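Of 44 values, 4 results under 10 alternatives planned and 1 added after seeing the data, 38 stayed within 1.5 times (counts) or inside the interval of the median. The number of WT-only peaks ran from 221 with a WT −log10 q of at least 5 to 391 with an HA-BAZ2B −log10 q of at least 5. It was 293 with this limit in all 3 lists. The median WT fold enrichment was 6.21 with a −log10 q of at least 5 in all 3 lists and 6.04 with this limit on the WT list, which removes the weakest WT peaks. Limited to the 45 sites with no missing HA-BAZ2B number, the alternative added later, the medians were 565 bp and 7.14 for H3K4me3 width and fold enrichment and 5.79 for WT fold enrichment. No paired analysis was possible because each group has 1 list with no value per replicate, and for the same reason no replicate could be left out. Recurrence in 2 replicates, unknown depth and lists from different source libraries limit the absence of an HA-BAZ2B peak to its absence from the list.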

Other observations

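On contigs outside the chromosomes, which the comparisons leave out, 8 of 44 H3K4me3 peaks with a WT peak carried no HA-BAZ2B peak (18.2%, 8.19 to 32.7%), against 13.6% on chromosomes 1 to 22 and X, which lies inside that interval. Their H3K4me3 fold enrichments ran from 2.403 to 12.1. On chromosome Y, 2 of 3 such peaks carried none.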
